A study of Mus musculus with 12 samples.

Results

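Keratins of mucosal and simple epithelia and of the hair follicle opening were followed in mouse epidermis with and without PPARγ. The 10 keratins considered were Krt4, Krt7, Krt8, Krt13, Krt18, Krt19, Krt20, Krt23, Krt76 and Krt79, and they were found by their gene symbol in a table of 14533 genes, of which 44 are keratins. The table listed 5 of the 10, namely Krt4, Krt7, Krt18, Krt23 and Krt79. Krt8, Krt13, Krt19, Krt20 and Krt76 had no row in it and were not analysed here. Every listed gene exceeded 0.5 CPM, the count relative to the library's total, in at least 6 mice. Krt7, Krt23 and Krt79 did so in 12 of 12 mice, Krt4 in 4 WT and 6 Pparg-/-epi mice, and Krt18 in 2 WT and 4 Pparg-/-epi mice.

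The study compared mice without epidermal Pparg, called Pparg-/-epi, with WT mice, and 1 mRNA library was sequenced from each of 12 mice. All mice were C57BL/6, untreated, 8 to 13 weeks old by the labels and carried the floxed Pparg allele on both chromosomes. The 6 Pparg-/-epi mice (4 female, 2 male) also carried 1 copy of a Cre recombinase driven by the Cytokeratin14 promoter, which is active in basal keratinocytes and in the follicle and sebaceous gland cells that descend from them, and the 6 WT mice (3 female, 3 male) carried no Cre. The tissue was dorsal skin frozen and scraped with a curette down to the pink vascular bed, so follicle openings, glands and some superficial dermis could be in it.

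Keratins form the intermediate filaments of epithelial cells as pairs of a type I and a type II protein. Interfollicular epidermis uses Krt5 with Krt14 in its basal layer and Krt1 with Krt10 above it. Krt4 is a type II keratin of the soft stratified linings of mouth and oesophagus, where its usual partner is Krt13. Krt7 is a type II keratin of ducts and simple glandular epithelia, and Krt18, a type I keratin, pairs with Krt8 in simple epithelia and in the Merkel cells of skin. Krt79 is a type II keratin of the cells that line the infundibulum, the mouth of the hair follicle, and the sebaceous duct. Krt23 is a type I keratin whose role is less well defined.

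On the mm10 assembly, 4 of the listed keratins lie in the chromosome 15 keratin cluster and 1 in the chromosome 11 cluster. Krt4 (chr15:101918535-101924735, minus strand, 9 exons) and Krt79 (chr15:101929332-101940324, minus strand, 9 exons) were next to each other among the listed keratins, between Krt77 and Krt78. Krt18 (chr15:102028216-102032026, plus strand, 7 exons) is a type I gene at the edge of this type II cluster. Krt7 (chr15:101412403-101427806, plus strand, 9 exons) lies near the other end of the cluster. Krt23 (chr11:99477973-99493110, minus strand, 8 exons) follows Krt10 among the listed keratins of the type I cluster. No exon of the 5 genes overlapped an exon of another gene, and 0% of their 75-base stretches occurred in transcripts of another gene.

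The promoters of Krt7 and Krt79, the pair whose levels did not overlap between the groups, are shown because both genes rose and because PPARγ is a DNA-binding receptor. They are the 250 bases before the RefSeq start on GRCm38.p6, 5′ to 3′ on the gene's own strand, at chr15:101412153-101412402 for Krt7 and chr15:101940325-101940574 for Krt79. Capitals mark matches on either strand to 5 motifs, namely AGGTCA (a nuclear receptor motif), DR1 (its direct repeat with a 1-base spacer), the letters TATAAA of a TATA box, the letters AGATAA bound by GATA factors, and the letters GGGCGG of a GC box.
Krt7: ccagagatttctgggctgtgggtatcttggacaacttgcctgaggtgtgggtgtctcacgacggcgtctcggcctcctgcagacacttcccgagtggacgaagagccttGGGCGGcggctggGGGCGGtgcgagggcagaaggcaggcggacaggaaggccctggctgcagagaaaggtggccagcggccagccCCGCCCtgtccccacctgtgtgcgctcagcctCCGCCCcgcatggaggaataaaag
Krt79: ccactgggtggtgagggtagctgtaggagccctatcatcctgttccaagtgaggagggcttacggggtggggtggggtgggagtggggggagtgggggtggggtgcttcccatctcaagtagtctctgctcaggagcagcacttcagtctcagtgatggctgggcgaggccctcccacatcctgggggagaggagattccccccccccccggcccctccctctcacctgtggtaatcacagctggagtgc
Krt7 held GGGCGG at 141, 128, 56 and 24 bases before its start, a motif found in 32.7% of 32851 promoters, and had a GC content of 66.0%. The Krt79 promoter matched none of the 5 and also had a GC content above the median of 52.4% over all promoters. AGGTCA occurred in 14.0% of all promoters and, among the listed keratins, in that of Krt18, 108 bases before its start. DR1 occurred in 0.0335% of all promoters and in none of those of the 8 keratins with an entry, which did not include Krt4. These letters are descriptions of a window, and binding was not measured.

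Total counts were between 10120840 and 16947632 in WT and between 11272135 and 18851255 in Pparg-/-epi mice, and 3 counts were worth 0.156 to 0.320 CPM. WT replicate 2 stood apart from the other WT mice in the sum of the sebocyte, adipocyte and leukocyte lists used below, where it was the highest of the 12 mice, and in the sum of the upper follicle and sebaceous duct list, where it ranked 3. Counts on 21 keratins of the hair shaft and of the inner root sheath around it, together called hair keratins here, varied widely. They summed to 18.3 to 1185 CPM among WT mice and 122 to 3060 CPM among Pparg-/-epi mice, with WT replicate 2 and Pparg-/-epi replicates 7 and 8 highest. For several results below, values without WT replicate 2 or without these 3 mice are given as well.

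Of the 5 listed keratins, 3 rose in Pparg-/-epi epidermis and none fell. Krt79 rose 6.51-fold, Krt7 3.21-fold and Krt4 2.39-fold. Krt18 and Krt23 did not pass the test. A gene counted as altered when its log2 fold change was 0.6 or more in size with an adjusted p below 0.05 (edgeR's quasi-likelihood test, Benjamini-Hochberg over all 14533 genes), which 10.3% of all genes met, 5.19% with a rise and 5.08% with a fall. In 2 of the 5, Krt7 and Krt79, all 6 Pparg-/-epi mice exceeded all 6 WT mice, as in 3.95% of all genes. The median log2 fold change of the 5 was 1.68, beside 1.02 for the other 39 keratins and -0.01 for all genes. This median counts Krt18, which exceeded 0.5 CPM in 2 WT and 4 Pparg-/-epi mice, and the keratins were chosen with earlier results of these data known. Without WT replicate 2, 3 of the 5 were still altered, and without the 3 mice with the most hair keratin counts 2 were, as Krt4 missed the threshold.

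**Figure D1:**
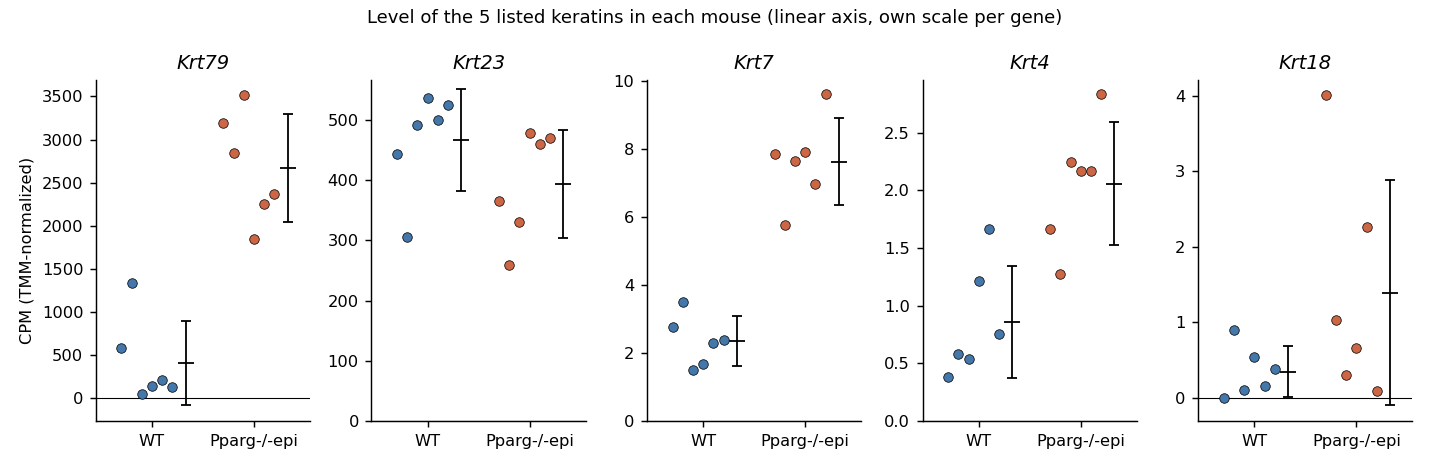
Level of each listed keratin in CPM (TMM-normalized, linear axis with its own scale for each gene) in 6 WT (blue) and 6 Pparg-/-epi (orange) mice, 1 point per mouse in the order of the replicate numbers, with the mean and SD beside them. Krt79 and Krt7 separate the groups, Krt4 and Krt18 have their highest values in Pparg-/-epi mice but overlap, and Krt23 overlaps widely.

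Krt79, the keratin of the follicle mouth, varied most among WT mice. Its level was 45.7 CPM in the lowest WT mouse, 177 CPM at the median and 1335 CPM in the highest, and 1849.8, 2606 and 3513 CPM in the lowest, median and highest Pparg-/-epi mouse. All 6 Pparg-/-epi mice were thus above all 6 WT mice, although WT replicate 2 alone held 1335 CPM and WT replicate 1 held 587 CPM, while the remaining 4 WT mice held 45.7 to 214 CPM. The means were 409.9 ± 491 CPM for WT and 2669 ± 625 CPM for Pparg-/-epi mice (SD, n = 6 each), a log2 fold change of 2.70 with a standard error of 0.67 (adjusted p = 0.0168, edgeR). Among WT mice the SD was 119.8% of the mean and the highest value was 29.2 times the lowest. Among Pparg-/-epi mice the SD was 23.4% of the mean and the highest value was 1.90 times the lowest.

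The log2 fold change of Krt79 was 3.56 without WT replicate 2 and 3.46 without the 3 mice rich in hair keratins. The 2 WT mice with the highest Krt79 were also the youngest of their group by the labels, at 8 and 9 weeks, while the other 4 were 12 or 13 weeks old. The Pparg-/-epi mice of 8 and 10 weeks held 1849.8 and 2363 CPM of Krt79, and those of 12 or 13 weeks 2251 to 3513 CPM. With age as a covariate the log2 fold change was 3.50. WT replicates 1 and 2 also had the highest RNA integrity numbers (RIN) of their group, 7.4 and 8.6, beside 5.9 to 7.1 in the other 4. Among Pparg-/-epi mice, replicates 7, 8 and 9, highest in Krt79, had a RIN of 8.6, 8.5 and 7.7, and replicate 10, the lowest, 7.7. Krt79 stayed altered with RIN as a covariate, and the parts of age and RIN in its WT spread were not tested. The age of WT replicate 2 differs between the labels and the study's supplement, and the labels' ages were used. In female mice alone, with 3 WT and 4 Pparg-/-epi mice, Krt79 did not pass (log2 fold change 2.47, adjusted p = 0.132, edgeR), and its adjusted p ranged from 5.18e-04 to 0.132 over all settings.

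Krt7, the ductal and glandular keratin, gave the most even difference, at a far lower level. It was 1.49 CPM in the lowest WT mouse, 2.34 CPM at the median and 3.50 CPM in the highest, and 5.76, 7.74 and 9.62 CPM in the Pparg-/-epi mice. The lowest Pparg-/-epi mouse was above the highest WT mouse. Raw counts were 14 to 66 among WT mice and 77 to 151 among Pparg-/-epi mice, well above 3 counts in all 12. The means were 2.35 ± 0.732 CPM and 7.62 ± 1.27 CPM (SD, n = 6 each), a log2 fold change of 1.68 with a standard error of 0.22 (adjusted p = 5.50e-04, edgeR). Krt7 remained altered in female mice alone (log2 fold change 1.47, adjusted p = 0.0361) and had an adjusted p between 3.37e-11 and 0.0361 over all settings.

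Krt4, the keratin of oral and oesophageal lining, was present at trace level in both groups. WT mice held 0.384 CPM at the lowest, 0.670 CPM at the median and 1.66 CPM at the highest, and Pparg-/-epi mice 1.27, 2.17 and 2.83 CPM. WT replicate 5, with 1.66 CPM, reached into the Pparg-/-epi range, so the groups overlapped. The underlying counts were 5 to 21 among WT mice and 21 to 37 among Pparg-/-epi mice. The means were 0.854 ± 0.486 CPM and 2.06 ± 0.535 CPM (SD, n = 6 each), a log2 fold change of 1.26 with a standard error of 0.36 (adjusted p = 0.0323, edgeR). This call was the least firm of the 3. It was lost in 7 of 12 fits that left out 1 mouse (without WT replicate 1, 3 or 6 or Pparg-/-epi replicate 9, 10, 11 or 12, with adjusted p up to 0.0659), in female mice alone (adjusted p = 0.144) and without the 3 mice rich in hair keratins (adjusted p = 0.0604), and the adjusted p ranged from 0.00926 to 0.144 over all settings.

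Krt18, the type I keratin of simple epithelia and Merkel cells, was the least abundant of the 5 in WT mice and close to the limit of the depth. Its WT values were 0 CPM at the lowest, where a count of 0 allows up to 0.192 CPM, 0.268 CPM at the median and 0.902 CPM at the highest, and its Pparg-/-epi values 0.0859, 0.848 and 4.01 CPM. The groups overlapped fully at the low end, with 3 counts or fewer in 3 WT mice and 1 Pparg-/-epi mouse, and the highest values came from Pparg-/-epi replicate 7 with 77 counts and replicate 11 with 25 counts. The means were 0.347 ± 0.335 CPM and 1.39 ± 1.49 CPM (SD, n = 6 each), a log2 fold change of 1.93 with a standard error of 0.85 that did not pass the test (adjusted p = 0.148, edgeR). The log2 fold change was 1.21 without Pparg-/-epi replicate 7 and 2.48 without WT replicate 2, and the adjusted p was between 0.0688 and 0.397 over all settings. A difference in Krt18 was not detectable at this depth and spread.

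Krt23 had, with Krt79, the highest mean levels of the 5, and it did not pass the test. WT mice held 306 CPM at the lowest, 495 CPM at the median and 536 CPM at the highest, and Pparg-/-epi mice 259, 413 and 478 CPM. The groups overlapped over most of their range. The means were 467 ± 85.2 CPM and 394 ± 89.6 CPM (SD, n = 6 each), a log2 fold change of -0.24 with a standard error of 0.17 (adjusted p = 0.382, edgeR). Its lowest WT value was that of WT replicate 2, the mouse with the highest WT value of Krt79, and leaving that mouse out gave a log2 fold change of -0.36 (adjusted p = 0.109), with adjusted p between 0.109 and 0.705 over all settings.

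**Figure D2:**
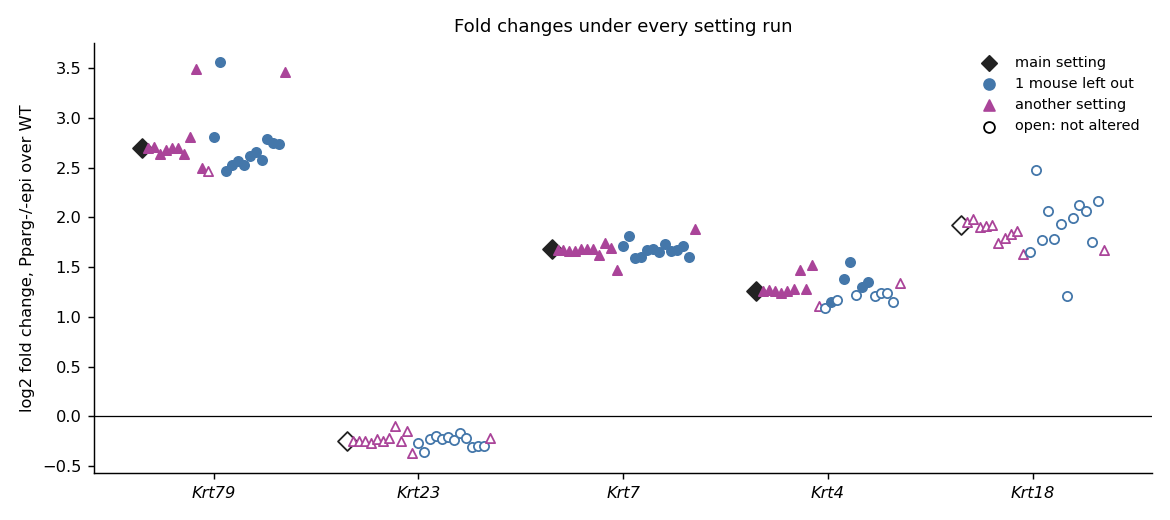
Log2 fold change (Pparg-/-epi over WT) of each listed keratin in the main setting (diamond), with 1 mouse left out (circles) and under other tests, scalings, filters, covariates or mouse subsets (triangles). Filled symbols were altered and open ones were not. Krt7 stays filled throughout, Krt79 is open once, Krt4 is open in 9 settings, and Krt18 and Krt23 are open in all.

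Compared per length, as reads scaled to gene length and library size (RPKM), the order of the mean levels in WT mice was Krt23, Krt79, Krt7, Krt4 and Krt18. Krt23 was at 303 ± 55.4 RPKM and Krt79 at 195 ± 234 RPKM (SD, n = 6 each). Krt7 was at 1.48 ± 0.461 RPKM, Krt4 at 0.400 ± 0.228 RPKM and Krt18 at 0.248 ± 0.239 RPKM (SD, n = 6 each). In 6 of 6 WT mice Krt79 exceeded Krt7 and Krt7 exceeded Krt4 (exact sign-flip permutation test, two-sided, p = 0.03125 for each, the smallest that 6 mice allow, and 0.0625 after Benjamini-Hochberg adjustment over 4 pairs). Krt23 exceeded Krt79, and Krt4 exceeded Krt18, in 5 of 6 WT mice (exact p = 0.125 and 0.156, both 0.156 after adjustment), and neither pair of neighbours was told apart beyond its spread. In Pparg-/-epi mice the mean of Krt79 was 1273 ± 298 RPKM and that of Krt23 256 ± 58.2 RPKM (SD, n = 6 each). By mean RPKM among the 44 keratins Krt79 ranked 10 in WT and 7 in Pparg-/-epi mice, Krt23 ranked 9 and 10, Krt7 34 and 32, Krt4 40 and 39, and Krt18 42 and 38.

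The 5 keratins together made up 1.13% of all keratin counts in the lowest WT mouse, 1.53% at the median and 6.67% in the highest, and 3.90%, 6.06% and 7.96% in the Pparg-/-epi mice. WT replicate 2 was the mouse at 6.67%, within the Pparg-/-epi range, and the next WT mouse was at 2.08%. Krt79 supplied 8.49% to 81.1% of the counts of the 5 among WT mice and 79.1% to 91.4% among Pparg-/-epi mice. It thus formed most of the share in every Pparg-/-epi mouse, but not in every WT mouse. All keratins together took 2.74% to 5.03% of the total counts among WT mice and 4.28% to 5.74% among Pparg-/-epi mice.

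**Figure D3:**
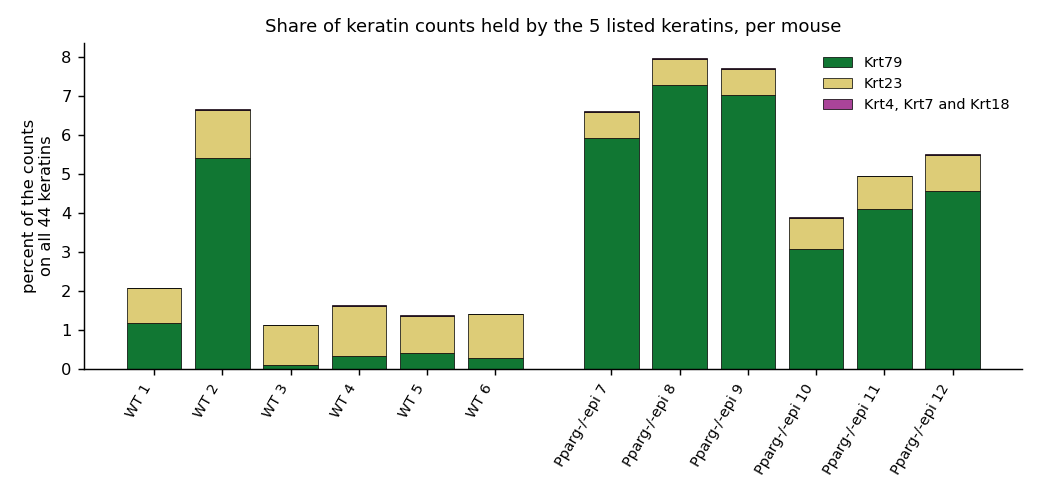
Percentage of the counts on all 44 listed keratins that fell on the 5 keratins studied, per mouse, stacked by gene. Krt79 (green) forms most of the bar in every Pparg-/-epi mouse and in WT replicates 1 and 2, while Krt23 (yellow) forms most of it in the 4 WT mice from replicate 3 on, and Krt4, Krt7 and Krt18 together are too small to see.

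Among the other 39 keratins, 7 were altered, 5 with a rise and 2 with a fall. The rises were in Krt6a (log2 fold change 2.52), Krt16 (2.92) and Krt17 (1.79), which are induced in stressed and hyperproliferative epidermis, in the basal keratin Krt14 (0.98), and in Krt42 (2.81). Krt42 was at trace level in WT mice, with 2 to 9 counts and a mean of 0.352 CPM, beside 8 to 85 counts in Pparg-/-epi mice. The reads of Krt6a can be split with its near copy Krt6b (2.74, adjusted p = 0.0892, edgeR), so its own value is uncertain, and without WT replicate 2 it was 3.19. Krt16 was at 3.54 without WT replicate 3. The falls were in Krt15 (-1.74), of basal and bulge cells, and Krt24 (-2.45). Of the remaining epidermal keratins, Krt5 had a log2 fold change of 0.14, Krt1 1.02 and Krt10 -0.02, and none of them passed (adjusted p = 0.690, 0.101 and 0.983, edgeR), although Krt1 passed in 2 of 12 fits without 1 mouse. Among all 44 the log2 fold change of Krt79 was exceeded by those of Krt16, Krt42 and Krt6b, and its listed neighbours in the cluster beside Krt4, Krt77 (-0.39) and Krt78 (-0.30), did not pass (adjusted p = 0.256 and 0.537, edgeR).

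**Figure D4:**
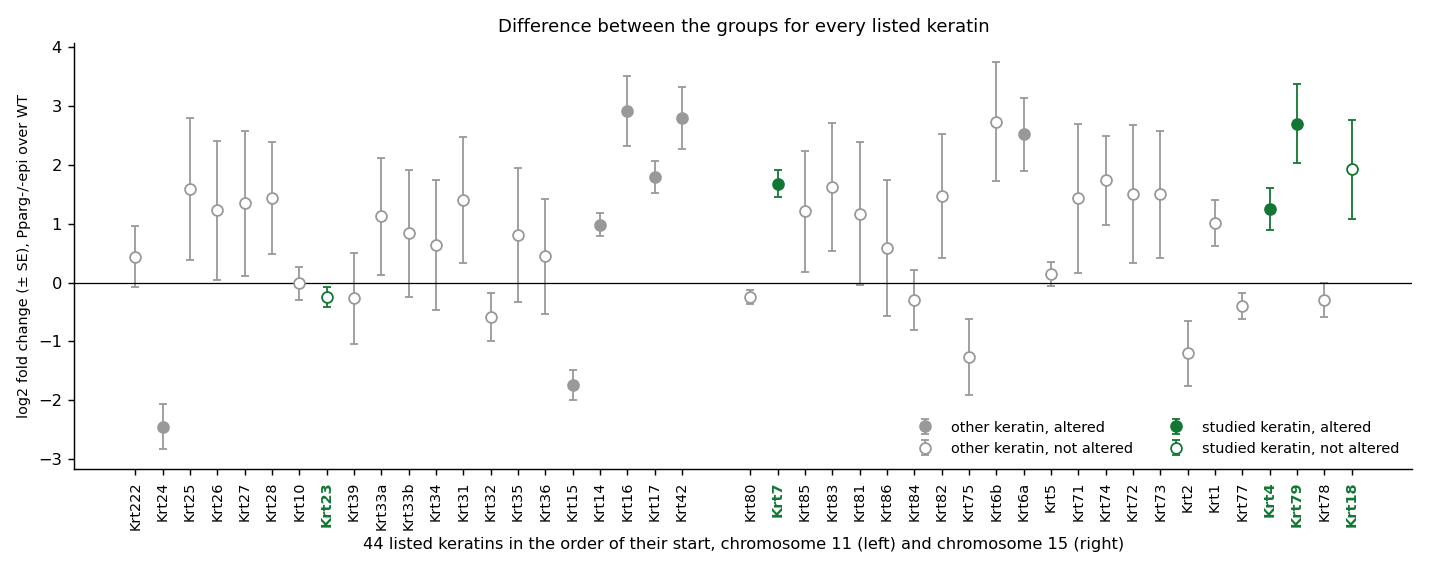
Log2 fold change (Pparg-/-epi over WT) with its standard error for the 44 listed keratins in the order of their start along chromosomes 11 and 15, with the 5 keratins studied in green and the others in grey, filled where altered. Krt4 and Krt79 rise beside Krt77 and Krt78, which lie below 0, and the hair keratins carry the widest error bars.

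Genes of the upper follicle and sebaceous duct, the region that Krt79 marks, rose in part with it. The 7 genes of this list were chosen with earlier results of these data known, so counts of them are descriptions. Of the 7 genes 4 were altered, all with a rise, beside 5.19% of all genes with a rise, and the median log2 fold change was 1.61. They were Defb6, a beta-defensin (2.51), Gata6, a transcription factor of the sebaceous duct and upper follicle (1.89), Teddm3 (2.75) and Atp6v1c2, a proton pump subunit (0.83). Gata6 was close to the threshold (adjusted p = 0.0460, edgeR), and its levels overlapped between the groups. Cst6, a cysteine protease inhibitor and the most abundant of the list, was at 1.61 (adjusted p = 0.0590), Plet1 at 1.47 (adjusted p = 0.0618) and Lrig1, a marker of junctional zone stem cells, at 0.89 (adjusted p = 0.0938, all edgeR). The list summed to 584 to 3349 CPM among WT mice and 2777 to 3892 CPM among Pparg-/-epi mice, and the WT mouse at 3349 CPM was replicate 2. Without it, 7 of the 7 were altered, and in every other fit that left out 1 mouse 3 were. Bulk counts cannot tell more cells of this region from more RNA per cell, and the part of that region's share in the rise of Krt79 was not tested.

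**Figure D5:**
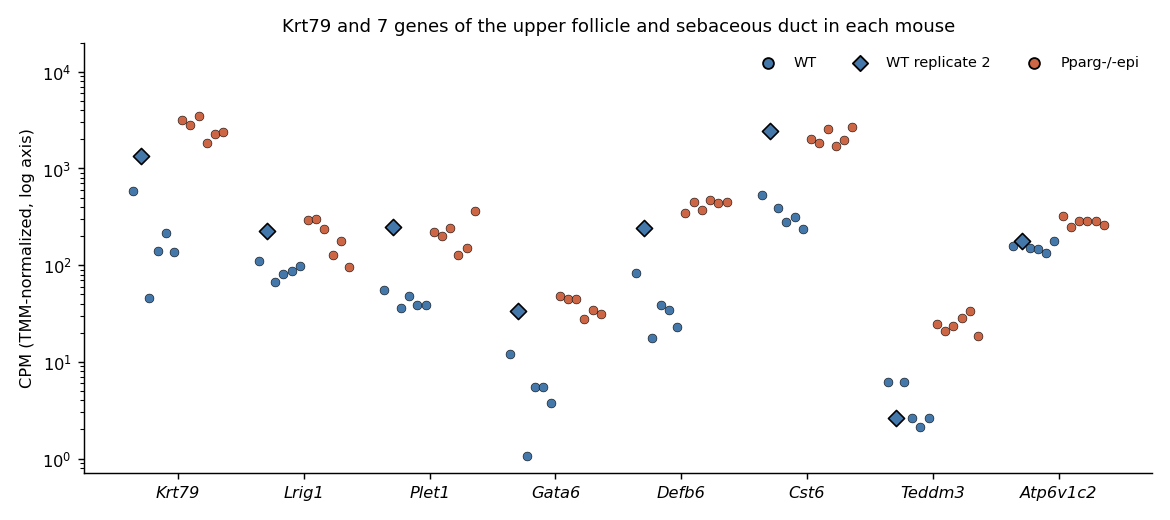
Level in CPM (log axis) of Krt79 and the 7 genes of the upper follicle and sebaceous duct list in each WT (blue) and Pparg-/-epi (orange) mouse, with WT replicate 2 as a diamond. The diamond is the highest WT point for every gene shown except Teddm3, and for Atp6v1c2 it is close to the next WT mouse (179.5 and 178 CPM).

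The sebocyte list moved the other way from Krt79. Of its 11 genes 10 were listed and 7 were altered, all with a fall, with a median log2 fold change of -3.49. They included Fa2h, a fatty acid hydroxylase (-7.85), Far2, a fatty acyl-CoA reductase (-6.07), and the desaturases Scd3 (-7.68) and Scd1, the most abundant of the list (-2.06). The other 3 were Awat1, Awat2 and Soat1, which esterify wax alcohols or cholesterol. The sum was 552 to 3024 CPM among WT mice and 215 to 329 CPM among Pparg-/-epi mice. WT replicate 2, highest for Krt79 among WT mice, was also highest in this sum.

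For Krt18, the Merkel cell list gave few values. Of its 13 genes 5 were listed, and Atoh1, Isl1, Sox2, Insm1 and Pou4f3, the transcription factors of the lineage, had no row. The single altered gene was Chga, chromogranin A, with a log2 fold change of 2.55 (adjusted p = 0.00116, edgeR), and the median of the 5 was 0.91. The list summed to 5.22 to 12.7 CPM among WT mice and 16.1 to 27.0 CPM among Pparg-/-epi mice. Chga, its most abundant gene, averaged 1.79 CPM over the WT mice and 10.6 CPM over the Pparg-/-epi mice. Each of the other listed genes overlapped between the groups. The part of Merkel cells in the values of Krt18 was not tested.

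For Krt7 and Krt18, the simple epithelium list served as a comparison. Of its 10 genes 9 were listed, 3 rose and 1 fell, with a median log2 fold change of 0.03. The transcription factors Elf3 (2.18) and Ehf (2.17) and the adhesion molecule Epcam (1.04) rose, and Cldn3, a tight junction claudin, fell by 1.76 on the log2 scale. For Krt4, the mucosal squamous list had 6 of 9 genes listed and 0 altered (edgeR's quasi-likelihood test, 2 with an unadjusted p under 0.05, and 1 altered by DESeq2), with a median of 0.15. Its most abundant gene, Scel, which codes for sciellin, had a log2 fold change of -0.42.

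Markers of other cells in the scrapings were set beside the 5 keratins. None of 8 skeletal muscle, 6 fibroblast and 6 adipocyte genes was altered (edgeR's quasi-likelihood test, with 5, 0 and 0 at an unadjusted p under 0.05). Of 5 endothelial genes Emcn rose (1.79), and of 6 leukocyte genes Cd3e fell (-0.75). The summed levels were 13.0 to 10820.5 CPM among WT mice and 11.0 to 436 CPM among Pparg-/-epi mice for muscle, 1014 to 34533 and 5324 to 11169 CPM for fibroblasts, 2.71 to 131.6 and 7.32 to 49.1 CPM for adipocytes, 4.34 to 102 and 23.8 to 153.8 CPM for endothelium, and 389 to 885 and 445 to 538 CPM for leukocytes. The WT maximum was in replicate 5 for muscle and in replicate 1 for fibroblasts. It was in replicate 2, the highest WT mouse for Krt79 and Krt7, for adipocytes, endothelium and leukocytes, and the part of these cells in the levels of the 5 keratins was not tested.

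The breeding numbers that begin the mouse names were largely split by genotype. A single number, 222, was shared, by WT replicate 2 and Pparg-/-epi replicate 10, and each of the others held mice of 1 group, so breeding and genotype can be told apart only in part. By the labels the WT mouse was a female of 9 weeks with a RIN of 8.6, and the Pparg-/-epi mouse a male of 8 weeks with a RIN of 7.7. Between these 2 mice Krt79 was 1335 and 1849.8 CPM, Krt7 3.50 and 7.90 CPM and Krt4 0.584 and 2.16 CPM in the WT and the Pparg-/-epi mouse, each in the direction of the groups. Krt18 was 0.902 and 0.665 CPM and Krt23 306 and 478 CPM, each in the direction opposite to that of the groups. With earlier against later breeding numbers as a covariate, the log2 fold change was 1.69 for Krt7 and 1.52 for Krt4, and both stayed altered, as did Krt79 (adjusted p = 0.0357, edgeR).

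Across the sexes the differences had the same direction in the 3 altered keratins. Krt79 was 137 to 1335 CPM in female and 45.7 to 587 CPM in male WT mice, and 2251 to 3513 CPM in female and 1849.8 to 2363 CPM in male Pparg-/-epi mice. Krt7 was 1.68 to 3.50 CPM and 1.49 to 2.75 CPM in female and male WT mice, and 5.76 to 7.85 CPM and 7.90 to 9.62 CPM in female and male Pparg-/-epi mice. Krt4 was 0.584 to 1.21 CPM and 0.384 to 1.66 CPM in female and male WT mice, and 1.27 to 2.24 CPM and 2.16 to 2.83 CPM in female and male Pparg-/-epi mice. These ranges come from 3 WT and 4 Pparg-/-epi females and from 3 WT and 2 Pparg-/-epi males. Groups this small separate easily, and the share of all genes that separated within a sex was not computed. The ranges are therefore descriptions only. In female mice alone Krt79 and Krt4 did not pass the test. A genotype by sex term passed in 0 of the 5 keratins (edgeR's quasi-likelihood test, adjusted p from 0.905 to 0.975, unadjusted p from 0.279 to 0.747, hence 0 at an unadjusted p under 0.05). With 2 male Pparg-/-epi mice its standard errors on the log2 scale were from 0.34 for Krt23 to 1.42 for Krt18.

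The genes whose levels followed each keratin most closely were sought over the 12 mice after the group means were removed, as Pearson's r of log2 CPM, which describes mice that share tissue makeup and depth. For Krt79 they were Secisbp2l (r = 0.982), Gata6 (r = 0.982) and Dnm3 (r = 0.975), and for Krt23 they were Als2cl (r = 0.974), Ccr9 (r = 0.973) and 2310050C09Rik (r = 0.971). For each of the pair 202 genes exceeded 0.9. For Krt7 they were Aldh3b3 (r = 0.929), Cyp17a1 (r = 0.923) and Spire2 (r = 0.919), for Krt4 Wdr36 (r = 0.933) and for Krt18 Dnah11 (r = 0.904). Without the 2 mice farthest from the median of the keratin, r was 0.927 to 0.941 for the 3 genes of Krt79, 0.907 to 0.942 for those of Krt23, 0.841 to 0.851 for those of Krt7, 0.879 for Wdr36 and 0.823 for Dnah11. Between the keratins themselves, r was 0.78 for Krt7 with Krt79, 0.54 for Krt4 with Krt23 and -0.62 for Krt23 with Krt79, and from -0.24 to 0.16 for the other 7 pairs.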

How the data were processed

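Scraped dorsal epidermis of 6 WT and 6 Pparg-/-epi mice was sequenced as mRNA, with 1 library per mouse. The authors aligned the reads to mm10 with STAR 2.5.2b, discarded reads of low quality or with several map positions, and counted the rest per gene with featureCounts (Subread 1.5.1). The deposited counts are not normalized. Of the rows 2800 were blank and were dropped. RPKM used the gene length in the same table. Library columns were assigned to mice by the numbers and names in the labels and the study's run sheet.

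Counts were scaled by TMM and compared with edgeR 4.0.16 (R 4.3.3), the quasi-likelihood test on genotype without covariates, with p adjusted over all genes by the Benjamini-Hochberg method. CPM are TMM-normalized, and log2 CPM used a prior count of 2. Alternatives were edgeR's likelihood ratio test, which the study's methods name, DESeq2 1.42.0, total counts, upper-quartile factors, a filter of 10 counts in every mouse, a robust fit, covariates (sex, RIN, age, and breeding number as 2 classes, earlier and later), female mice alone, leaving out each mouse, and, added after the data were seen, leaving out the 3 mice with the most hair keratin counts. The fits were tested on simulated data. Figures were drawn with matplotlib 3.10.9.

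The keratins and the 13 marker lists were chosen with earlier results of these data known. The text names the listed keratins of the set, other keratins that were altered, Krt5, Krt14, Krt1 and Krt10, altered and most abundant genes of a list, and for each keratin up to 3 genes with r above 0.9. Krt6b, Krt77, Krt78, Cst6, Plet1, Lrig1 and genes with no row were named outside this rule, after their values were seen, and some genes under it are not reported here. Ratios and correlations planned for pairs that include Krt8, Krt13, Krt19 or Krt20 were not computed, since these have no row, and the planned test on the share of keratin counts was left out. Exon overlaps and shared stretches were read from GENCODE M21, and promoter sequences from RefSeq.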

Additional observations from a re-analysis of the deposited data

Results flagged for a closer look

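The percentage of keratin counts that fell on the 5 keratins was 6.67% in WT replicate 2, while the next WT mouse was at 2.08%, so that this gap spanned 0.829 of the whole WT range, above the critical value of Dixon's test for 6 mice. Of 12 groups of values checked this was the only one to stand out, and chance singles out about 1 group in 20. The same mouse held the highest WT level of Krt79 (1335 CPM) and of Krt7 (3.50 CPM), and the lowest WT level of Krt23 (306 CPM).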

How the results depend on the processing

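The 5 keratins kept their direction in every setting run, with log2 fold changes of 2.47 to 3.56 for Krt79, 1.47 to 1.89 for Krt7, 1.09 to 1.55 for Krt4, 1.21 to 2.48 for Krt18 and -0.37 to -0.09 for Krt23. Of the 5, 3 were altered, and 2 to 3 without 1 mouse. In female mice alone 1 was altered, with 7 mice in the fit. Krt4 and Krt18 were not tested with at least 10 counts in every mouse. The share of keratin counts was 3.72 percentage points higher in Pparg-/-epi mice, 3.46 from RPKM and 3.35 to 4.58 without 1 mouse. No paired analysis was possible because the groups share no replicate number and only 1 breeding number, with 1 mouse of each group. Krt10 changed sign without passing, at 0.00242 with at least 10 counts in every mouse, 0.0643 with sex, 0.254 with RIN and 0.0452 with breeding number as a covariate, 0.0922 in females alone and -0.20 to 0.0741 without 1 mouse. The upper follicle and sebaceous duct list had 7 altered genes by DESeq2 and without the 3 mice rich in hair keratins, and 2 in females alone. It had 7 without WT replicate 2 and 3 in every other fit without 1 mouse. The Merkel list had 2 by DESeq2 and 1 to 2 without 1 mouse. The simple epithelium list had 2 in females alone and 3 to 5 without 1 mouse. The mucosal list had 1 by DESeq2 and with sex or RIN as a covariate, and 0 to 1 without 1 mouse. The filament linker list had 1 in females alone and 0 to 1 without 1 mouse. The bulge list had 1 with at least 10 counts in every mouse, which tests fewer genes, and 2 to 4 without 1 mouse (4 without WT replicate 2). The retinoid list had 1 with that filter and in females alone, 4 without the 3 mice rich in hair keratins and 2 to 5 without 1 mouse (5 without WT replicate 2). The sebocyte list had 2 with that filter, 4 in females alone and 7 to 8 without 1 mouse. The muscle list had 2 by the likelihood ratio test. The endothelial list had 0 with that filter, with sex or breeding number as a covariate, in females alone and without the 3 mice rich in hair keratins, and 0 to 1 without 1 mouse. The leukocyte list had 0 with RIN or breeding number as a covariate, in females alone and without those 3 mice, and 0 to 1 without 1 mouse. The causes of these shifts were not tested.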

Other observations

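Genes for proteins that tie keratin filaments to cell junctions were set beside the 5 keratins. Of 10 such genes, 0 were altered (edgeR's quasi-likelihood test, with 0 at an unadjusted p under 0.05), the median log2 fold change was -0.16, and the most abundant of them, Dsp, which codes for desmoplakin, averaged 5273 CPM over the WT mice and 5267 CPM over the Pparg-/-epi mice.

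Retinoid genes were set beside the keratins because retinoids are known to shift epidermis towards mucosal keratins. Of 9 genes 2 were altered, both with a rise, among them Stra6, the retinol transporter, with a log2 fold change of 4.46 (adjusted p = 3.45e-04, edgeR). The median of the 9 was 0.43, and Rarg, the most abundant, had a log2 fold change of -0.14. In the bulge list of 8 genes Krt15 and Fgf18 fell, with log2 fold changes of -1.74 and -3.96 (adjusted p = 0.00106 and 8.94e-04, edgeR), while the median was -0.05. No test linked either list to the levels of Krt4, Krt7 or Krt79.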
